A study of Micractinium conductrix and Chlorella sorokiniana with 12 samples.

Results

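A set of 81 genes of the green alga Chlorella sorokiniana had lower transcript levels in cultures grown at pH 5.7 than at pH 7.6. The genes were chosen by their measured values: the highest of the 3 libraries at pH 5.7 had to lie below the lowest of the 3 libraries at pH 7.6, the mean at pH 7.6 had to be at least 5 FPKM, and that mean had to be at least 3 times the mean at pH 5.7. FPKM is the number of sequenced fragments scaled to gene length and library size. The 81 members were 0.845% of the 9587 genes in the C. sorokiniana table, and the series held 18936 genes over 2 species. Because the pH difference chose the members, every pH difference given for them is a description. No p-value of it is given for a member, and calls from a fit across all genes are only counted, near the end.

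The libraries came from whole-cell lysates of C. sorokiniana UTEX 1602, a free-living strain kept in a public algal collection. It was grown in a modified freshwater medium at pH 5.7 (libraries 2, 4 and 57) or at pH 7.6 (libraries 1, 3 and 76), and the library numbers are those in the sample names. Both groups thus share the strain and the medium and differ in pH, and the labels give no genetic change, no added agent and no culture age. Nothing states that the 3 libraries at a pH are separate cultures, and their spread may be technical.

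External pH sets several conditions that a freshwater alga meets. In acidic water dissolved inorganic carbon is mostly CO2, whereas near neutral and alkaline pH it is mostly bicarbonate, and green algae such as Chlamydomonas take up bicarbonate with inducible transporters and carbonic anhydrases. Iron and several other metals are less soluble as pH rises, and uptake of nitrate, phosphate and sugars in algae and plants is commonly driven by the proton gradient across the plasma membrane. Which of these functions the members serve cannot be read here: the deposited table lists running identifiers with no gene name, product or position. Only 2 members are therefore named by identifier, g3590 and g6470, and the others are given by their place in an order.

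No read totals accompany the FPKM values, but the smallest steps between low values give relative depths, as fragments per unit of FPKM. The scaling between libraries is not given, so these depths need not follow the total number of reads. With library 1 set to 1, the estimated depth was 1.03 for library 3 and 1.49 for library 76 at pH 7.6, and 1.50, 1.31 and 1.92 for libraries 2, 4 and 57 at pH 5.7. By this measure the pH 5.7 library was the deeper one in each of the pairs 1 and 2, 3 and 4, and 57 and 76. This order holds only within the pairs, since library 76 at pH 7.6 (1.49) was deeper than library 4 at pH 5.7 (1.31). Whether depth affected the member values was not tested. Library medians over all genes were 19.7 to 21.4 FPKM, while the FPKM total was 1664100 in library 76 against 766511 to 1074960 in the other 5.

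The members spanned a wide range of levels at pH 7.6. Their mean FPKM at that pH ran from 5.69 to 1774, with a median of 43.1, and 57 of 81 lay above the median of 24.8 FPKM over the 9011 genes that averaged at least 1 FPKM. A mean of 100 FPKM or more was reached by 21 members, 52 lay between 10 and 100 FPKM, and 8 between 5 and 10 FPKM. At pH 5.7 the median of the members was 7.11 FPKM and 17 of 81 stayed above the median of all genes tested, 24.1 FPKM. Of the members, 5 averaged under 1 FPKM at pH 5.7 and another 27 between 1 and 5 FPKM, whereas 4 still averaged 100 FPKM or more.

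**Figure D1:**
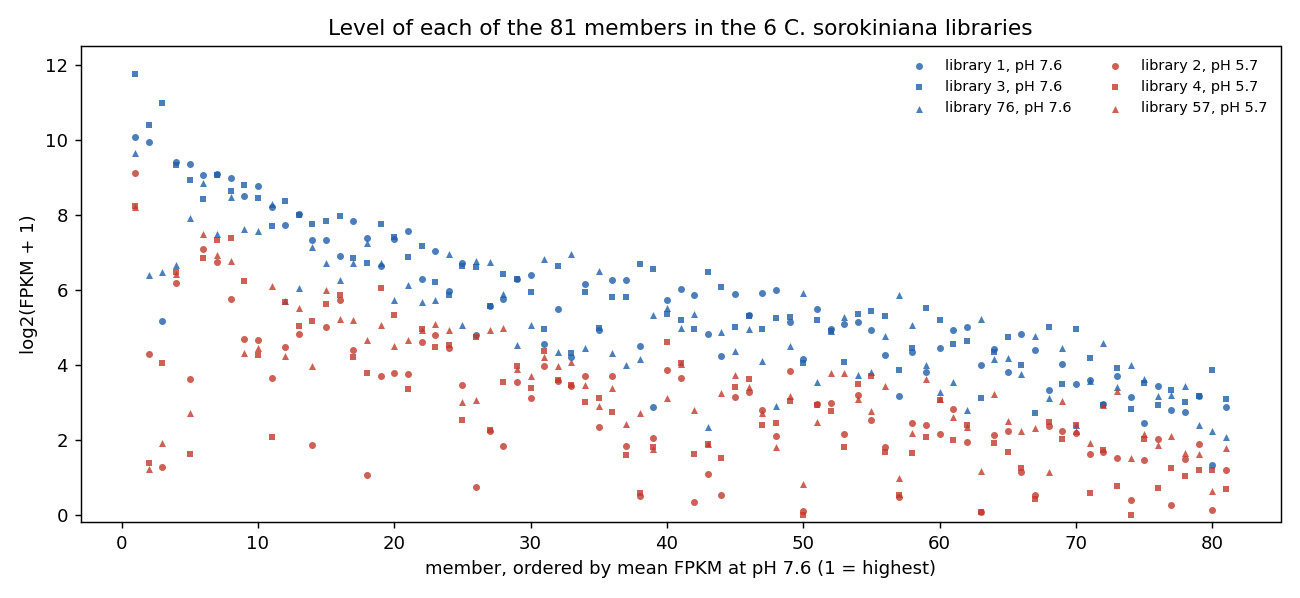
Level of each of the 81 members, as log2(FPKM + 1), in each of the 6 C. sorokiniana libraries, with members ordered from left to right by mean FPKM at pH 7.6; blue marks are the libraries at pH 7.6, red marks those at pH 5.7, and the marker shape shows the pairs 1 and 2, 3 and 4, and 57 and 76. Within each member every blue mark lies above every red mark, which the choice of members fixes, and the vertical gap between the colours varies widely.

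In all 3 libraries at pH 5.7 the members took a smaller share of the transcriptome. They held 0.917%, 1.37% and 0.346% of all FPKM in libraries 1, 3 and 76, against 0.200%, 0.193% and 0.190% in libraries 2, 4 and 57. The shares at pH 5.7 were close to each other, and that of library 76 lay nearer to them than to libraries 1 and 3. Lysates pool many cells, so less of a transcript per cell and fewer cells expressing it cannot be told apart. FPKM are relative to each library, so a share also depends on the other genes of that library. The number of members at 10 FPKM or more was 69, 72 and 68 in libraries 1, 3 and 76 and 30, 31 and 34 in libraries 2, 4 and 57. Counted this way library 76 was like the other libraries of its pH. Its members summed to 5750 FPKM, against 9860 and 14518 FPKM in libraries 1 and 3, and its total over all genes was the highest. The median member stood at 34.6, 39.98 and 30.3 FPKM in libraries 1, 3 and 76 and at 4.41, 5.70 and 7.94 FPKM in libraries 2, 4 and 57.

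The size of the difference ranged from just past the limit of 3 to more than 100-fold. The ratio of the pH 7.6 mean to the pH 5.7 mean had a median of 5.18 and quartiles of 3.70 and 9.82. It lay between 3 and 5 in 39 members, between 5 and 10 in 24, and at 10 or more in 18, of which 4 exceeded 50. On the log2(FPKM + 1) scale, which understates changes of low genes, the median difference was -2.10, and the median over all genes tested was -0.01. A ratio of means can rest on 1 library, and 9 members had more than 66.7% of their pH 7.6 FPKM in a single library, 6 of them in library 3 and 3 in library 76. With medians in place of means the ratio still reached 3 in 70 of 81 members, and in 37 even the lowest pH 7.6 library was at least 3 times the pH 5.7 mean.

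The most abundant member, g3590, was high at both pH values. It stood at 1072, 3453 and 796 FPKM in libraries 1, 3 and 76, and at 555, 298 and 297 FPKM in libraries 2, 4 and 57. Library 3 was far above the rest, and the lowest pH 7.6 value was only 1.44 times the highest pH 5.7 value. The means were 1774 ± 1460 FPKM (SD, n = 3) at pH 7.6 and 383 ± 149 FPKM at pH 5.7, a ratio of 4.63. Even at pH 5.7 its mean was at the 97.4th percentile of the table, so g3590 was a highly expressed gene throughout that differed by degree.

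The other named member, g6470, was chosen because its smallest difference over the 3 pairs of libraries was the largest of any member. It stood at 652, 482 and 241 FPKM in libraries 1, 3 and 76, and at 11.2, 2.08 and 5.52 FPKM in libraries 2, 4 and 57. The groups were far apart, with the lowest pH 7.6 value 21.4 times the highest pH 5.7 value, the widest such gap among the members. Its mean was 458 ± 206 FPKM (SD, n = 3) at pH 7.6, at the 97.1st percentile of the table, and 6.28 ± 4.63 FPKM at pH 5.7, at the 16.1st percentile. The differences within pairs were -5.74, -7.29 and -5.21 on the log2 scale for libraries 2 minus 1, 4 minus 3 and 57 minus 76.

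The 4 members that still averaged 100 FPKM or more at pH 5.7 were g3590 and the sixth, seventh and eighth in order of level. The sixth stood at 531, 343 and 455 FPKM in libraries 1, 3 and 76, and at 135, 115 and 178 FPKM in libraries 2, 4 and 57. Its groups were apart, with the lowest pH 7.6 value 1.93 times the highest pH 5.7 value, although its ratio of 3.11 was near the limit. The seventh and eighth had ratios of 3.25 and 3.83. In the seventh, libraries 1 and 3 stood at 547 and 528 FPKM and library 76 at 178 FPKM, close to the 159 FPKM of library 4.

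A few members were nearly constant within pH 7.6. The most even one stood at 30.1, 29.1 and 29.0 FPKM in libraries 1, 3 and 76, and at 6.85, 5.82 and 12.6 FPKM in libraries 2, 4 and 57. Its groups were well apart although its ratio was only 3.49. At the other end, the closest member to overlap stood at 6.73, 6.67 and 22.8 FPKM in libraries 1, 3 and 76 and at 2.17, 2.33 and 6.65 FPKM in libraries 2, 4 and 57, so library 57 nearly reached libraries 1 and 3.

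Other members with ratios above 50 differed in how evenly they were expressed at pH 7.6. The member with the highest ratio, 113, stood at 989, 1340 and 83.5 FPKM in libraries 1, 3 and 76, and at 18.4, 1.58 and 1.32 FPKM in libraries 2, 4 and 57. In the member with a ratio of 108, library 3 alone stood at 2008 FPKM, while libraries 1 and 76 stood at 34.6 and 88.3 FPKM and the pH 5.7 libraries at 1.40, 15.6 and 2.75 FPKM. In both, library 76 was far below library 3, and in the second the ratio rested on library 3. The member with a ratio of 110 was far less abundant and showed the opposite order, with 16.7, 15.5 and 59.0 FPKM in libraries 1, 3 and 76. Its pH 5.7 values were 0.0706 FPKM in library 2, a listed 0 in library 4 and 0.759 FPKM in library 57. The table listed 2 member values at 0 in all, both at pH 5.7, in 2 different members.

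The difference was not equally large in the 3 pairs of libraries. Its median over members was -2.54 for library 2 minus 1, -2.57 for library 4 minus 3 and -1.45 for library 57 minus 76, where the medians over all genes tested were -0.02, 0.00 and 0.00. Library 57 was at least 4-fold below library 76 in 26 of 81 members, while the numbered pairs 1 and 2 and 3 and 4 each reached 4-fold in 62. The pair 57 and 76 gave the smallest of the 3 differences in 57 members. A difference of at least 2-fold in every pair was found in 58 of 81 members.

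**Figure D2:**
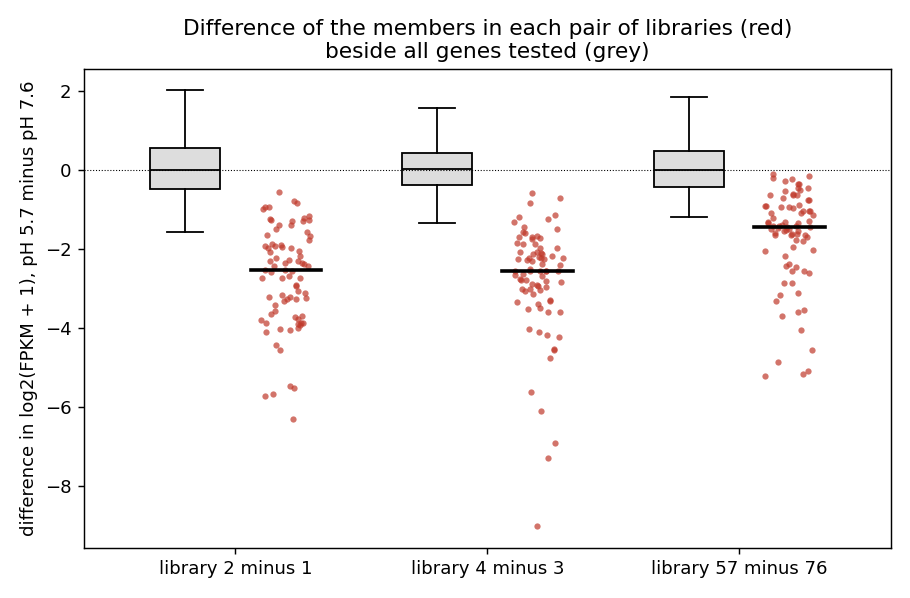
Difference in log2(FPKM + 1), pH 5.7 minus pH 7.6, in each pair of libraries; red points are the 81 members with their median as a black bar, and grey boxes show all 9011 genes tested (median, quartiles, whiskers at the 5th and 95th percentiles). All members lie below 0 in every pair, as the choice requires, and their median is closer to 0 for libraries 57 and 76 (-1.45) than for the other pairs (-2.54 and -2.57).

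The same conditions were also applied to 4 libraries, so that the remaining pair could be read without having chosen the genes. With libraries 1 and 2 left out, 103 genes met the conditions, and 97 of them (94.2%) were lower in library 2 than in library 1, as were 51.1% of all genes tested. With libraries 3 and 4 left out, 102 genes met them, and 97 (95.1%) were lower in library 4 than in library 3, against 49.7% of all genes tested. Each of these sets was chosen on the other numbered pair together with libraries 57 and 76. Of the 103 genes 71 were members, and of the 102 genes 67. Members are lower in every pair by the way they were chosen, so these shares are descriptions too. The median difference in the left-out pair was -1.99 and -2.03 on the log2 scale.

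Libraries 57 and 76 differed in this respect. With libraries 57 and 76 left out, 310 genes met the conditions, and 144 of them (46.5%) were lower in library 57 than in library 76, against 50.0% of all genes tested. The median difference in that pair was 0.09 on the log2 scale. A difference of at least 3-fold was found there in 45 of the 310 genes (14.5%), against 2.92% of all genes tested. Of the 310 genes, 76 were members, so 5 of the 81 members lay outside the set.

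Within each pH the members differed by library. Over the 3 libraries at pH 7.6 the highest value exceeded the lowest by a median of 2.81-fold, 7 members stayed within 1.5-fold and 23 exceeded 4-fold. The median coefficient of variation (SD over mean) was 0.507 at pH 7.6 and 0.420 at pH 5.7, and over all genes tested it was 0.406 and 0.302. The medians of the members were above those of the table, but the choice of members itself shapes their spread. The condition on overlap limits it, while the condition on the ratio of means can be met through 1 high library at pH 7.6.

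**Figure D3:**
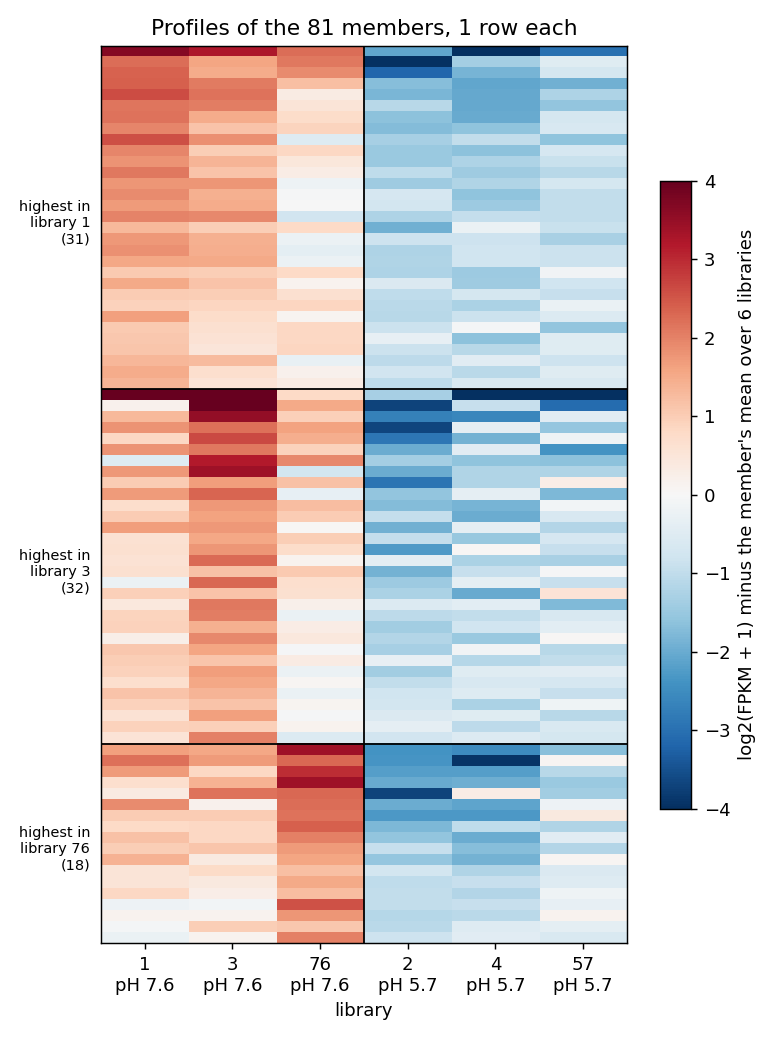
Profile of each member (1 row each) over the 6 libraries as log2(FPKM + 1) minus the member's own mean, sorted by the library with the highest value at pH 7.6; the colour scale ends at -4 and 4, and values beyond take the end colour. Of the members, 31 were highest in library 1, 32 in library 3 and 18 in library 76, and library 76 is pale in much of the first 2 blocks.

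At pH 7.6, library 3 was the highest for 32 members, library 1 for 31 and library 76 for 18. Library 76 was the lowest for 48 of 81, and for 44.1% of all genes tested. At pH 5.7, library 57 was the highest for 40 members and the lowest for 11. Over all genes tested library 57 was the highest in 33.5% and the lowest in 41.1%. Library 76 lay below the mean of libraries 1 and 3 in 59 members (72.8%, against 53.9% of all genes tested), with a median difference of -0.64 on the log2 scale. Library 57 lay above the mean of libraries 2 and 4 in 61 members (75.3%, against 45.3% of all genes tested), with a median difference of 0.40. The same medians over all genes tested were -0.10 and -0.08. Both held in 40 members (49.4%), against 15.9% of all genes tested, so that in these members each of these libraries lay on the side of the other pH. Whether these shares differ from those of the table was not tested.

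The 18 members that were highest in library 76 formed a less abundant group with another profile. Their median mean was 27.5 FPKM at pH 7.6, against 49.9 FPKM for the members highest in library 1 and 38.5 FPKM for those highest in library 3. Of these 18, 14 were also highest in library 57 among the pH 5.7 libraries, while 13 of 31 and 13 of 32 were so in the other groups. Their median difference for library 57 minus 76 was -2.46 on the log2 scale, against -1.31 and -1.28 in the other groups. These groups were formed from the values, so their contrasts are descriptions.

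**Figure D4:**
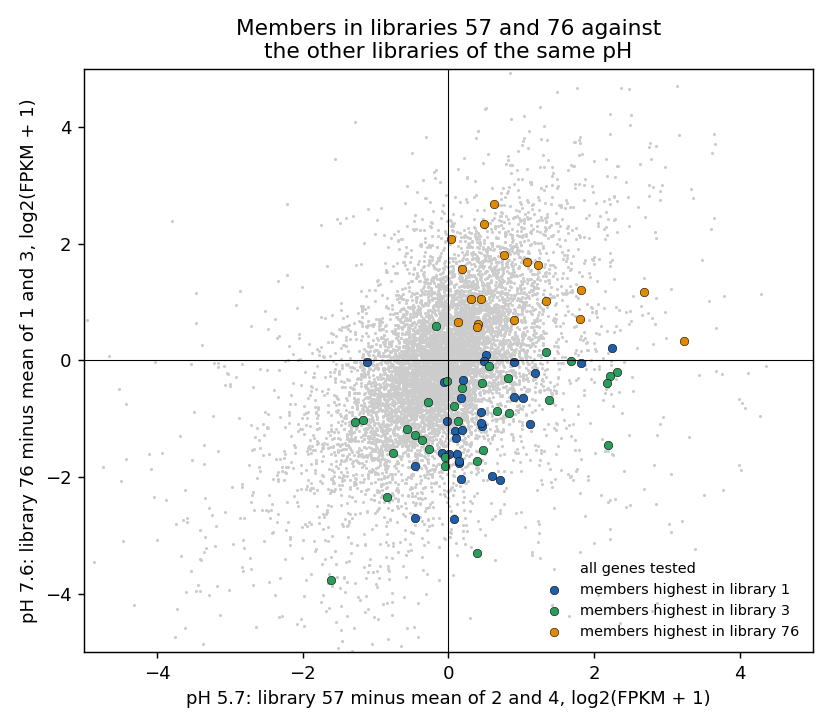
Difference of library 57 from the mean of libraries 2 and 4 (horizontal axis, pH 5.7) and of library 76 from the mean of libraries 1 and 3 (vertical axis, pH 7.6), in log2(FPKM + 1), with all genes tested in grey and members coloured by their highest library at pH 7.6; 73 genes tested, none of them a member, lie outside the axes. Members highest in libraries 1 and 3 lie mostly below the horizontal line, those highest in library 76 lie above it, and 61 of 81 members lie to the right of the vertical line.

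A contrast that the choice of members did not use is libraries 57 and 76 together against libraries 1 to 4, since each side holds as many libraries of either pH, although the condition on overlap limits the spread within a pH. In limma with pH as a covariate, 19 of 9011 genes (0.211%) were higher and 27 (0.300%) lower in libraries 57 and 76 at a Benjamini-Hochberg adjusted p under 0.05. None of the 81 members was among them in either direction. With so few genes called in the table, a count of 0 of 81 does not set the members apart. The table's counts were themselves unsteady: leaving out library 1, 2, 3 or 4 gave 0 to 1 higher and 0 to 1 lower genes. Equal totals gave 53 and 239, and quantile normalization 133 and 104. With libraries 57 and 76 read as a pair, the contrast sets 1 pair against 2, while the fit counts 6 separate libraries, so its p-values are too small. At an unadjusted p under 0.05 in limma, 11 members were higher (13.6%, against 10.4% of all genes tested) and 5 lower (6.17%, against 15.2%). The member counts also moved with the processing. Equal totals gave 6 members higher (7.41%, against 5.09% of all genes tested) and 12 lower (14.8%, against 25.3%). Without library 3, 7 were higher (8.64%, against 7.12%) and 0 lower (against 10.3%). Leaving out library 57 or 76 leaves 1 library on that side, so no count is given for it. The median difference was -0.10 on the log2 scale for the members and -0.08 for all genes tested.

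Some members carried consecutive identifiers. There were 4 such pairs, with 8 members, and the files do not say whether the numbering follows the genome. In the most abundant pair the first gene stood at 56.7, 30.2 and 40.2 FPKM in libraries 1, 3 and 76 and at 0.258, 2.09 and 5.96 FPKM in libraries 2, 4 and 57. Its neighbour stood at 165, 104 and 151 FPKM and at 1.09, 12.7 and 24.5 FPKM in the same order. Both had the same ranking of libraries at each pH, with ratios of 15.3 and 10.97.

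A second pair included the member with the ratio of 110, and its neighbour stood at 14.8, 7.63 and 36.4 FPKM in libraries 1, 3 and 76 and at 0.0489, 0.0561 and 1.23 FPKM in libraries 2, 4 and 57. Both genes of this pair were highest in library 76 and at their lowest in libraries 2 and 4. The profiles within these pairs, each centred on its own mean, were 1.11 and 1.08 apart (Euclidean distance on the log2 scale over 6 libraries). The profiles of the other 2 pairs were less alike, with distances of 2.79 and 2.20 and different highest libraries at pH 7.6. Reads shared between similar neighbouring genes cannot be judged from FPKM.

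Of the genes tested that were numbered directly before or after a member, 151 in all, 17 (11.3%) had a difference below -1 on the log2 scale. The share over all genes tested was 4.00%. Of the 17, 8 were the members just described, which were chosen by their pH difference. Among the other 143, none of them members, 9 (6.29%) had such a difference, against 3.12% of all tested genes that were not members. Their median difference was -0.08, and the lowest was -6.01.

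The profiles most like those of the named members were measured by the same distance. For g3590 the 5 nearest members lay at 1.02 to 1.27 and the median over all other genes tested was 3.19. The nearest gene of all, at 0.85, was no member, with means of 3.29 FPKM at pH 7.6 and 0.0169 FPKM at pH 5.7, so it was far less abundant and missed the minimum level. For g6470 the nearest genes were 5 members at 2.74 to 3.69, the first of them the member with the ratio of 113, and the nearest non-member lay at 4.41. That non-member averaged 1838 FPKM at pH 7.6 and 180 FPKM at pH 5.7. Large differences have few close profiles, and the distance includes the pH difference that chose the members.

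The limits of the selection cut through a continuum. The member with the lowest ratio was at 3.04 and the highest ratio among the 324 genes that failed that condition alone was 2.97. The lowest mean at pH 7.6 was 5.69 FPKM inside and 4.62 FPKM among the 13 genes outside. The lowest pH 7.6 value was 1.002 times the highest pH 5.7 value in the closest member, and 0.998 times in the closest of 122 genes that failed through overlap alone. In 12 members this gap was under 1.2 and in 33 at least 2. Over all genes tested, 4.66% had pH groups that did not overlap, with pH 5.7 lower. Whether a random order of the libraries would give a like share was not tested.

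In the fit of pH across all genes, limma without pairing called none of the 81 members and none of 9011 genes (0%) lower at pH 5.7. At an unadjusted p under 0.05, it gave 204 genes (2.26% of all genes tested), 77 of them members (95.1% of the 81). With the pairs of libraries as a block, 13 genes (0.144%) were called lower and 10 of them were members. The rule used this contrast, so these counts add nothing to the choice. Membership also depended on scaling: with FPKM totals made equal, 34 of the 81 members met the conditions, and the median difference became -1.58 for the members and 0.49 for all genes tested.

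Genes higher at pH 5.7 under the mirrored conditions were more numerous in this species. There were 252 of them, or 2.63% of the table. Their median level on the high side was lower, with 17.6 FPKM at pH 5.7 against 43.1 FPKM for the members at pH 7.6, and 7.94% of them reached 100 FPKM against 25.9% of the members. Their median ratio was 8.41 against 5.18. In the table of Micractinium conductrix, an alga from Paramecium bursaria grown at the same pH values, the conditions gave 103 genes lower and 25 higher of 9349. Genes were not matched between the species and the tables were scaled separately, so these numbers stand side by side without a test.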

How the data were processed

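Polyadenylated RNA of C. sorokiniana was sequenced from 6 libraries, 3 per pH. The authors deposited FPKM values per gene and library, unpooled. FastQC, Trimmomatic, HISAT2, Picard and Cuffnorm are named per the submitters' processing notes, without versions. Genome build, gene models, strand setting and the scaling between libraries are not given in the sources. The members and all lists and tests were chosen with earlier results of these data known. Differences are on log2(FPKM + 1). Fits used limma 3.58.1 in R 4.3.3 (eBayes with trend, 2-sided, Benjamini-Hochberg, threshold 0.05) over the 9011 genes averaging at least 1 FPKM, which include all 81 members. The fits were also run on simulated data, in which noise was independent between libraries and no pair effect was added. That run cannot show how the fits behave with paired libraries. Other values used Python 3.11.15 with pandas 2.3.3 and numpy 2.4.6.

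Pairs 1 and 2, 3 and 4, and 57 and 76 were read from the names alone. Deviations from the pH means correlated across genes by 0.40, 0.58 and 0.48 within these pairs. Between libraries of unlike pH that the names do not pair, the correlations ran from -0.57 to 0.06. Deviations within a pH are tied to each other, so these values are not independent. The pairs by name were treated as paired in a fit beside the unpaired one. Relative depth came from the commonest ratio of values under 1 FPKM between libraries (within 0.001 on the log2 scale), shared by 9 to 27 genes per library pair. Absolute depth is unknown, so no counting interval is given. The named genes are the member with the highest pH 7.6 mean and the member with the largest smallest difference over the pairs. Planned lists by gene product could not be used, because identifiers are paired with no names.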

Additional observations from a re-analysis of the deposited data

How the results depend on the processing

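The number of genes meeting the conditions stayed within 1.5 times of 81 with a minimum of 1 or 10 FPKM, equal upper quartiles and quantile normalization. It became 126 with a ratio of at least 2, 42 with at least 5, 203 with no condition on overlap, 141 when each pair had to be lower in place of no overlap, and 34 with equal totals. Leaving out 1 library or 1 pair gave 86 to 310 genes: 215 without library 57, 236 without library 76 and 310 without both. The median difference of the members, -2.10, ran from -2.30 (pseudocount 0.1) to -1.58 (equal totals) under the other pseudocounts and scalings and from -2.35 to -1.90 with 1 library left out. The unpaired limma fit of pH called 0 members lower (0 of 9011 genes in all), 2 with equal totals (2 of 9023 genes) and 2 with quantile normalization (2 of 9025 genes). The fit with the replicate block called 10 (13 of 9011 genes). With 1 library left out the unpaired fit called 0 to 1 members, and the 1 was without library 76 (2 of 9004 genes). The fit of libraries 57 and 76 called 0 members higher, or 1 with quantile normalization, where 133 of 9025 genes (1.47%) were called higher. It called 0 members lower, also with equal totals, where 239 of 9023 genes (2.65%) were called lower. With library 1, 2, 3 or 4 left out it called 0 members and 0 to 1 of all genes tested in each direction. For none of these changes was the cause tested. Absolute depth is unknown, which limits what members near 0 FPKM at pH 5.7 can show.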
